A study of Mus musculus with 12 samples.

Results

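The angiopoietin and Tie receptor genes were followed in cultured mouse brain endothelial cells (BECs). They are 6 genes, taken by symbol from the gene column of both deposited tables: the ligands Angpt1 and Angpt2, the receptors Tek (the gene of Tie2) and Tie1, the receptor phosphatase Ptprb (VE-PTP) and the matrix protein Svep1. All 6 were found among the 27321 genes that the NX/NG table (29965 genes) and the OGD-R table (29775 genes) share. The BECs came from Cort+/+ mice or from Cort-/- mice, which lack the neuropeptide cortistatin and have a C57BL/6J background; each replicate pooled cells of 3 mice, and 8-week-old animals and 60 h of puromycin, to enrich BECs, are given for the isolation from Cort+/+ brains. For NX/NG, RNA was taken after 24 h under normoxia with glucose (21% oxygen and 5.5 mM glucose). For OGD-R, it was taken after 4 h of oxygen-glucose deprivation (1% oxygen, no glucose) and 20 h of reoxygenation. By the methods of the study, the deprivation medium also lacked serum, which was given back for the reoxygenation. The part of this serum change in the environment differences was not tested. The tables hold 3 Cort+/+ and 2 Cort-/- libraries in each environment, numbered 1 and 2 (Cort-/- NX/NG), 1 and 3 (Cort-/- OGD-R) and 1 to 3 (Cort+/+). Cort+/+ OGD-R replicate 1 is in the table but not in the heatmaps of the study, and it was kept here.

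Tie2 is a receptor tyrosine kinase of the endothelium. Angpt1, made mainly by mural and other mesenchymal cells, activates it and supports vessel quiescence and barrier function. Angpt2 is made and stored by endothelial cells and, depending on context, acts as a weak agonist or as an antagonist of the same receptor. Tie1 binds no angiopoietin with high affinity and modulates Tie2 within receptor complexes, VE-PTP dephosphorylates Tie2 and VE-cadherin components, and Svep1 is a large extracellular matrix protein that binds Tie1. Active Tie2 signals through PI3-kinase and Akt to retain FOXO1 in the cytoplasm, and FOXO1 in turn induces Angpt2.

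The libraries held from 12386048 to 12390428 reads on genes, as recovered from the deposited RPKM. The study reports a higher mean number of paired-end reads, and the nearly equal totals are not explained in the sources used here. The recovered reads may thus not be all reads sequenced. A pair of OGD-R libraries stood apart: the share of the ribosomal transcript Rn18s-rs5 was 0.0775% in replicate 1 of Cort+/+ and 0.0951% in replicate 3 of Cort-/-, while it ranged from 7.64 to 15.8% in the remaining 8. Member results whose unadjusted p crossed 0.05 without either library are given beside the gene or with the counts of members. Cort itself was counted at most 2 times in any library, and at 0 in all Cort-/- libraries, too low a level to check the genotype labels. The 8 endothelial markers summed to 1004 to 1478 RPKM (reads divided by gene length and by library size), with Cdh5 (VE-cadherin) and Pecam1 among the highest. Genes listed as markers of other vascular cell types were counted too: the smooth muscle list, led by the actin and transgelin genes Acta2 and Tagln, summed to 995 to 1777 RPKM and the fibroblast and leptomeningeal list to 83.6 to 342 RPKM. Myh11, the smooth muscle myosin gene, did not exceed 2.11 RPKM, and Des (desmin) did not exceed 0.369 RPKM. By contrast the astrocyte list did not exceed 0.154 RPKM, the microglia and macrophage list stayed at or under 2.01 RPKM, and the lymphatic regulator Prox1 had at most 0.0778 RPKM. The lymphatic endothelial list as a whole summed to 20.7 and 21.02 RPKM (NX/NG) and 20.4 and 19.5 RPKM (OGD-R) in the Cort-/- libraries and 15.1 to 17.8 RPKM in the Cort+/+ libraries, which do not overlap, and most of it was Flt4, the VEGF-C receptor gene. In bulk RNA, fewer cells of a type and less RNA per cell cannot be told apart.

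The levels of the 6 genes spanned over 3 orders of magnitude, and their order was the same in all 10 libraries: Angpt2, Tie1, Ptprb, Tek, Angpt1, Svep1. Angpt2 lay between 190 and 436 RPKM and ranked from 68 to 183 among all genes of its library. Tie1 lay between 77.0 and 105 RPKM (ranks 374 to 480), Ptprb between 31.0 and 47.6 RPKM (ranks 906 to 1528) and Tek between 9.57 and 15.3 RPKM (ranks 3034 to 5026). The ranges of these 4 genes did not overlap. Angpt1, between 0.249 and 1.54 RPKM, and Svep1, between 0.0955 and 0.382 RPKM, were low, and their ranges overlapped across libraries although Angpt1 was above Svep1 within each. The low genes rested on few reads: 16 to 96 for Angpt1 and 19 to 84 for Svep1, against 501 to 918 for Tek and 9189 to 18890 for Angpt2. Relative to the mean over all 10 libraries, Tie1 varied least (SD 7.69% of the mean), then Tek (13.4%), Ptprb (13.9%), Angpt2 (25.9%), Angpt1 (44.7%) and Svep1 (45.3%).

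**Figure D1:**
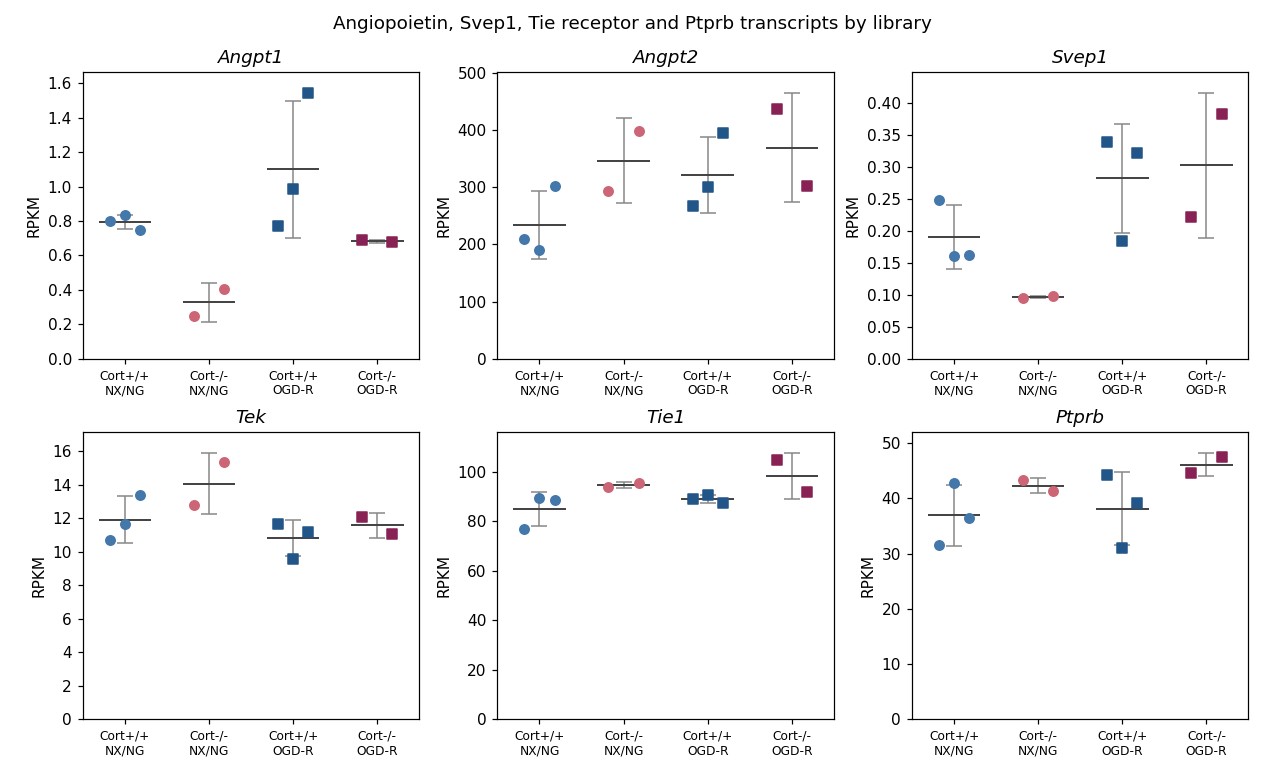
RPKM as deposited (vertical axis, linear, from 0) of the 6 genes in each library of the 4 groups; points are libraries, bars the mean and whiskers 1 SD. Angpt1 is lowest in the 2 Cort-/- NX/NG libraries (0.249 and 0.408 RPKM), and the Angpt2 groups overlap throughout.

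Among the ligands, Angpt1 differed most by genotype. It lies on the minus strand of chromosome 15 at 42424723 to 42676977 (GRCm38) and shares 737 exonic bases with the antisense gene Gm17473, which had at most 0.308 RPKM. Under NX/NG its level was 0.799, 0.833 and 0.750 RPKM in Cort+/+ BECs and 0.249 and 0.408 RPKM in Cort-/- BECs. The groups did not overlap. With 3 and 2 libraries such separation can readily arise without a difference, and its share over all genes was not computed. Throughout, it describes the values only. The Cort-/- libraries held 16 and 27 reads of Angpt1, with exact Poisson 95% intervals of 9.15 to 26.0 and 17.8 to 39.3, against 45 to 57 reads in Cort+/+; these intervals cover counting error only. On the log2(RPKM + 0.1) scale the difference of Cort-/- from Cort+/+ was -1.09 ± 0.28 (SE; 95% interval -1.80 to -0.37), a fold of 0.471 on that scale, which understates the change of low genes. Its unadjusted limma p was 0.0116, and its false discovery rate (FDR) over all genes tested was 0.409, so it did not pass the threshold of 0.05. With 1 of the 5 libraries left out the difference ran from -1.36 to -0.81. Over all alternative settings it ran from -1.36 to -0.44, and its unadjusted limma p reached 0.0501. After OGD-R the level was 0.769, 0.986 and 1.54 RPKM in Cort+/+ and 0.688 and 0.676 RPKM in Cort-/-, again without overlap. This difference was -0.57 (95% interval -1.45 to 0.31; FDR = 0.978), and without Cort+/+ OGD-R replicate 3, the library at 1.54 RPKM, it was -0.31.

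Over both environments, with the environment as a term in the fit, the Angpt1 difference of Cort-/- from Cort+/+ was -0.82 (95% interval -1.33 to -0.32; unadjusted p = 0.00460, FDR = 0.220). OGD-R against NX/NG gave 0.31 in Cort+/+ (95% interval -0.36 to 0.98) and 0.83 in Cort-/- (95% interval -0.15 to 1.81) on the jointly scaled RPKM. The value in Cort+/+ was 0.057 without OGD-R replicate 3 and 0.52 without OGD-R replicate 1. The interaction of genotype and environment was 0.52 (95% interval -0.48 to 1.52; FDR = 1.00), so a difference between the genotypes in this response was not shown. With the genotype as a term, Angpt1 was 0.52 higher after OGD-R (95% interval 0.03 to 1.01; unadjusted p = 0.0413, FDR = 0.596).

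Genes listed as markers of other cell types moved with Angpt1 under NX/NG. The 8 pericyte markers summed to 8.61 and 11.3 RPKM in Cort-/- against 20.2 to 23.6 RPKM in Cort+/+, and 4 of 8 had an unadjusted p under 0.05, all lower in Cort-/-. Cspg4 (NG2) had 3.92 ± 0.32 RPKM (SD, n = 3) in Cort+/+ and 1.02 ± 0.48 (SD, n = 2) in Cort-/-, and Pdgfrb, the receptor of platelet-derived growth factor B, had 12.7 ± 0.69 and 6.41 ± 1.76 RPKM. The smooth muscle sum was 1300 and 1556 RPKM in Cort-/- and 1449 to 1777 RPKM in Cort+/+, which overlap. The pericyte channel genes Kcnj8 and Abcc9 and the pericyte gene Higd1b were at or near 0 in all libraries, at most 0.102 RPKM. The fibroblast and leptomeningeal markers summed to 83.6 and 121 RPKM in Cort-/- against 193 to 279 RPKM in Cort+/+; 3 of 6 had an unadjusted p under 0.05, the collagens Col1a1, Col1a2 and Col3a1, all lower. These collagens made up nearly all of the sum, since Pdgfra, Dcn and Lum did not exceed 0.706, 1.93 and 0.149 RPKM in any library. The value of Pdgfra, a receptor gene of fibroblasts, was above 0 (0.66, unadjusted p = 0.0722), with 0.335 ± 0.027 RPKM in Cort+/+ and 0.596 ± 0.157 RPKM in Cort-/-. None of these markers passed FDR 0.05. After OGD-R the pericyte sum was 16.8 and 19.3 RPKM in Cort-/- and 18.7 to 24.5 RPKM in Cort+/+, ranges that overlap, and the library with the most Angpt1 (Cort+/+ OGD-R replicate 3) had the lowest pericyte sum of its group. Of the pericyte markers Vtn (vitronectin) then had an unadjusted p under 0.05 (-1.32; unadjusted p = 0.0234), and 2 of 6 fibroblast and leptomeningeal markers did, Col3a1 (-0.61; unadjusted p = 0.00204) and Lum (-0.85; unadjusted p = 0.0332), all lower in Cort-/-. The fibroblast and leptomeningeal sum after OGD-R was 200 and 252 RPKM in Cort-/- and 231 to 342 RPKM in Cort+/+. Their part in the Angpt1 difference was not tested.

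**Figure D2:**
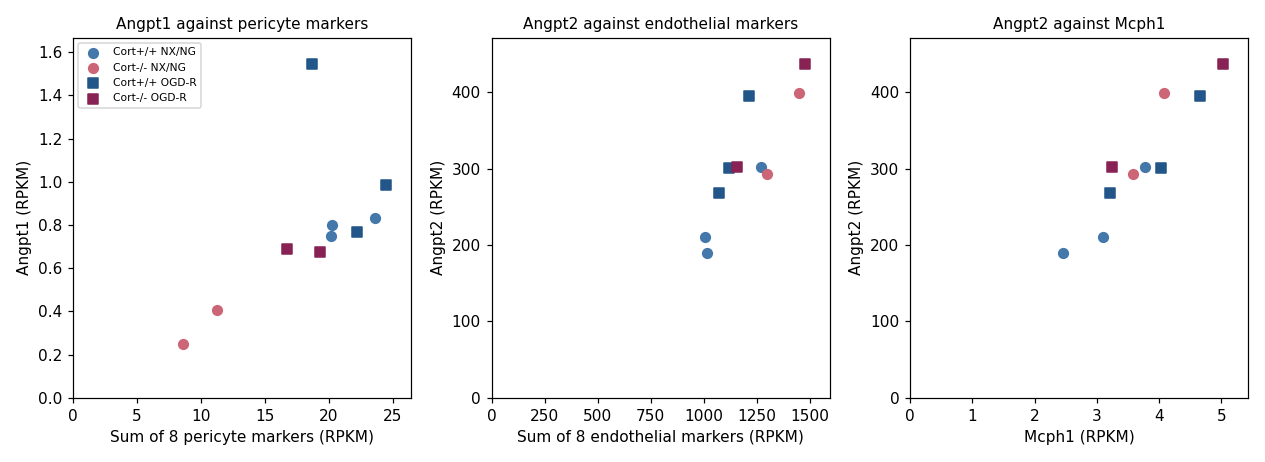
Each point is a library, in RPKM as deposited on linear axes from 0: Angpt1 against the sum of 8 pericyte markers (left), Angpt2 against the sum of 8 endothelial markers (middle) and Angpt2 against Mcph1 (right). The 2 Cort-/- NX/NG libraries are lowest in both Angpt1 and the pericyte sum (8.61 and 11.3 RPKM), and Angpt2 runs with Mcph1 across all 4 groups.

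Angpt2, the most abundant of the 6, had 210, 190 and 302 RPKM in Cort+/+ and 294 and 399 RPKM in Cort-/- under NX/NG. Cort+/+ replicate 3 reached the Cort-/- range, and the groups overlapped. The difference was 0.58 ± 0.25 (SE; 95% interval -0.06 to 1.22), a fold of 1.49, with an unadjusted p of 0.0669 and an FDR of 0.642. With 1 library left out it ran from 0.36 (without Cort-/- replicate 2) to 0.80 (without Cort-/- replicate 1; unadjusted p = 0.0144). After OGD-R the levels were 268, 301 and 395 RPKM in Cort+/+ and 436 and 302 RPKM in Cort-/-, and the groups overlapped again (0.20, 95% interval -0.48 to 0.87). Without Cort-/- OGD-R replicate 1 this difference turned to -0.07. The environment difference was 0.40 in Cort+/+ (95% interval -0.14 to 0.94) and 0.01 in Cort-/- (95% interval -0.81 to 0.82), and the interaction was -0.39 (95% interval -1.27 to 0.49). Counting error was small beside this spread, since the shallowest Angpt2 value rested on 9189 reads. The endothelial marker sum was 1299 and 1449 RPKM in Cort-/- under NX/NG and 1004 to 1270 RPKM in Cort+/+, and 2 of 8 endothelial markers, Erg and Emcn, had an unadjusted p under 0.05 there, both higher. As a share of that sum, Angpt2 was 0.209, 0.186 and 0.238 in Cort+/+ and 0.226 and 0.275 in Cort-/-, which overlap. After OGD-R the share was 0.250, 0.268 and 0.325 in Cort+/+ and 0.295 and 0.260 in Cort-/-. In Cort+/+ the shares after OGD-R were all above those under NX/NG, while in Cort-/- the environments overlapped. The part of the endothelial transcripts in the Angpt2 values was not tested.

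Angpt2 lies on the minus strand of chromosome 8 at 18690263 to 18741562 (GRCm38), inside the span of Mcph1 on the plus strand, and the 2 genes share 0 exonic bases. Mcph1, the microcephalin gene of DNA damage and chromosome condensation control, ran from 2.46 to 5.03 RPKM. It was lowest in Cort+/+ NX/NG replicate 2 and highest in Cort-/- OGD-R replicate 1, the libraries where Angpt2 too was lowest and highest. Across the 10 libraries Pearson's r of the pair was 0.923, given as a description, since libraries share environment and genotype. The methods of the study name a stranded library kit, but whether counting used the strand is not given in the sources used here. Reads of the pair may therefore not be told apart where unspliced RNA was sequenced, and a part of such reads in the r was not tested. Mcph1 had 252 to 461 reads per library, against 9189 to 18890 for Angpt2.

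Svep1 had 0.248, 0.161 and 0.161 RPKM in Cort+/+ and 0.0955 and 0.0976 RPKM in Cort-/- under NX/NG. These groups did not overlap, but rested on 30 to 49 and on 19 and 20 reads. The difference of -0.55 (95% interval -1.31 to 0.22) had an unadjusted p of 0.126. After OGD-R Svep1 had 0.339, 0.184 and 0.322 RPKM in Cort+/+ and 0.222 and 0.382 RPKM in Cort-/-, which overlap (0.07, 95% interval -0.96 to 1.10). OGD-R against NX/NG in Cort-/- gave 0.96 (95% interval -0.06 to 1.97; unadjusted p = 0.0595), and over both genotypes 0.58 (95% interval 0.06 to 1.11; unadjusted p = 0.0334, FDR = 0.586). The OGD-R libraries low in Rn18s-rs5, at 0.339 and 0.382 RPKM, had the most Svep1 of their groups; without Cort-/- OGD-R replicate 3 the difference over both genotypes was 0.44.

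The receptors varied less. Tek had 10.7, 11.7 and 13.4 RPKM in Cort+/+ and 12.8 and 15.3 RPKM in Cort-/- under NX/NG, and the groups overlapped (0.24, 95% interval -0.09 to 0.57; FDR = 0.681). After OGD-R Tek had 11.6, 9.57 and 11.2 RPKM in Cort+/+ and 12.1 and 11.0 RPKM in Cort-/-, again with overlap (0.10, 95% interval -0.19 to 0.40). The environment comparison gave values below 0 for Tek in each genotype, -0.21 in Cort+/+ (95% interval -0.48 to 0.06) and -0.35 in Cort-/- (95% interval -0.70 to -0.00051; unadjusted p = 0.0498), where the groups did not overlap. With 1 library left out the Cort-/- value ran from -0.48 to -0.22, and its unadjusted p stayed under 0.05 in 1 of 4 cases (highest unadjusted p = 0.246). Over both genotypes the difference was -0.27 (95% interval -0.46 to -0.07), a fold of 0.831, with an unadjusted p of 0.0126 and an FDR of 0.484. That unadjusted p stayed under 0.05 without any 1 of the 10 libraries (0.00550 to 0.0352). Over all 17 alternative settings it was under 0.05 in 16 and at most 0.0510.

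Tie1 had 77.0, 89.3 and 88.6 RPKM in Cort+/+ and 93.9 and 95.5 RPKM in Cort-/- under NX/NG. After OGD-R it had 89.1, 90.7 and 87.4 RPKM in Cort+/+ and 105 and 91.8 RPKM in Cort-/-. In each environment both Cort-/- libraries were above all 3 Cort+/+ libraries, by small margins, which describes the values only. The differences were 0.16 (95% interval -0.05 to 0.37) under NX/NG and 0.14 (95% interval -0.13 to 0.41) after OGD-R, and 0.15 over both environments (95% interval 0.02 to 0.29; unadjusted p = 0.0296, FDR = 0.390), a fold of 1.11. Some endothelial and lymphatic markers moved the same way over both environments. Erg (0.39, unadjusted p = 0.0103), Pecam1 (0.31, unadjusted p = 0.0422), Flt4 (0.31, unadjusted p = 0.000265) and Lyve1 (0.48, unadjusted p = 0.00559) were higher in Cort-/-. In the same lists Cldn5 (-0.02), Flt1 (-0.11), Prox1 and Reln were below 0. The markers with an unadjusted p under 0.05 were 2 of 8 endothelial and 2 of 4 tested lymphatic ones, and none passed FDR 0.05. The part of these markers in the Tie1 difference was not tested. Environment moved Tie1 by -0.01 over both genotypes (95% interval -0.14 to 0.12). Without Cort-/- OGD-R replicate 3, a library low in Rn18s-rs5, the genotype difference after OGD-R was 0.23 with an unadjusted p of 0.0357.

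Tek and Tie1 lie on chromosome 4, at 94739289 to 94874976 (plus strand) and 118471191 to 118490061 (minus strand) of GRCm38, and Svep1 lies there too, at 58042442 to 58206859. Cort, the deleted gene, is on the same chromosome at 149125034, so Tie1, Tek and Svep1 lie 30.6, 54.3 and 90.9 Mb from it. The 250 bases before the RefSeq start of Tek (GRCm38.p6) are shown, since the gene is a known target of ETS-family factors that were measured here; capitals mark the ETS core GGAA, or TTCC where it lies on the other strand.
Tek, chr4:94739039-94739288, plus strand: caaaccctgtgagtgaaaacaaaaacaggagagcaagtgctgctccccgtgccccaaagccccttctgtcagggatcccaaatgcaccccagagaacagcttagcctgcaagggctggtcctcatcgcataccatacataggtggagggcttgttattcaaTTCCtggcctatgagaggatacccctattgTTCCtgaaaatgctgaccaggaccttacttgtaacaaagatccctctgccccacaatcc
This stretch held 2 ETS cores on either strand. Of 32851 promoters of the same length, 93.5% held at least 1, 76.8% held 2 or more, and the median held 3. A TATA box (TATAAA on either strand) was not found there and is in 12.4% of all, and GATAA on either strand was not found and is in 22.6% of all. These matches describe the letters of the window and not binding.

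Ptprb, on chromosome 10 at 116275523 to 116389535, had 31.6, 42.8 and 36.4 RPKM in Cort+/+ and 43.3 and 41.3 RPKM in Cort-/- under NX/NG, with overlap. After OGD-R it had 44.2, 31.0 and 39.1 RPKM in Cort+/+ and 44.7 and 47.6 RPKM in Cort-/-, where the Cort-/- libraries were just above Cort+/+ replicate 1. The differences of 0.21 (95% interval -0.13 to 0.55) and 0.29 (95% interval -0.13 to 0.70) gave 0.25 over both environments (95% interval 0.01 to 0.49; unadjusted p = 0.0429, FDR = 0.435). Environment gave 0.00 over both genotypes (95% interval -0.24 to 0.24).

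**Figure D3:**
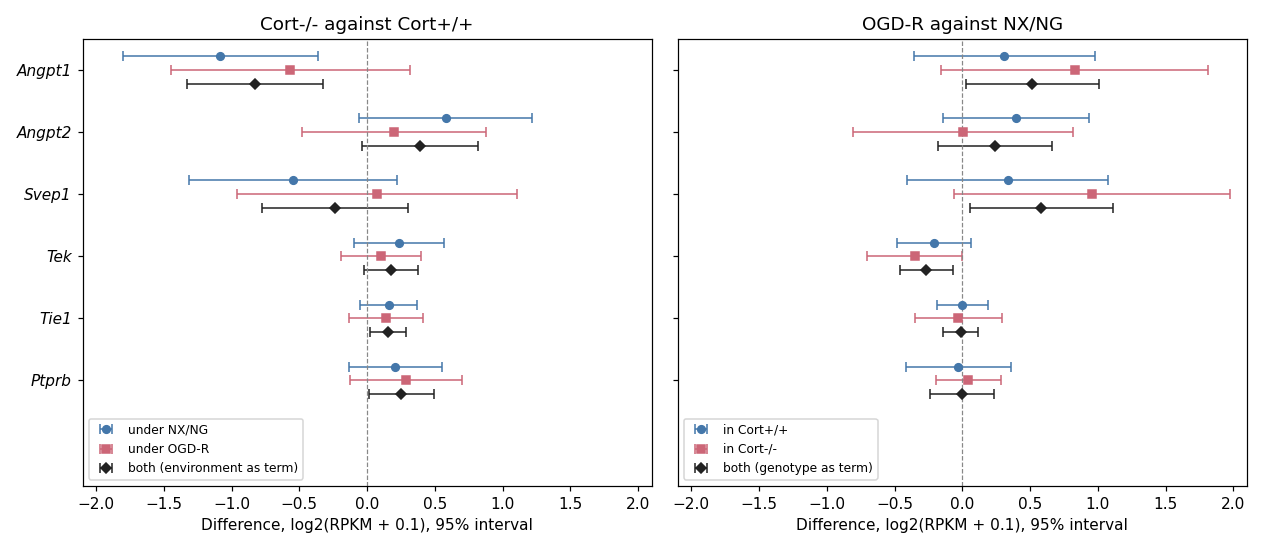
Differences on the log2(RPKM + 0.1) scale with 95% limma intervals: Cort-/- against Cort+/+ (left) and OGD-R against NX/NG (right), each within 1 group of the other factor and over both. Only the Angpt1 genotype differences under NX/NG and over both environments and the Angpt1 and Svep1 environment differences over both genotypes exceed 0.5 with an interval clear of 0.

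No member passed FDR 0.05 in any of the 7 comparisons. The share of all genes that did was also small: 0.0% for genotype under NX/NG (0 of 29965), 0.0% for genotype after OGD-R, 0.0332% for environment in Cort+/+ (9 of 27075), 0.0% for environment in Cort-/-, 0.011% for the interaction, 0.0915% for genotype over both environments (25 of 27321) and 0.0146% for environment over both genotypes (4 of 27321). At an unadjusted p under 0.05 the members numbered 1 of 6 for genotype under NX/NG (Angpt1, lower; background 8.39%), 0 of 6 for genotype after OGD-R (3.42%), 0 of 6 for environment in Cort+/+ (5.48%), 1 of 6 for environment in Cort-/- (Tek, lower; 4.08%) and 0 of 6 for the interaction (2.85%). Over both environments 3 of 6 differed by genotype at that level, Angpt1 lower and Tie1 and Ptprb higher, against 11.1% of all genes. Over both genotypes 3 of 6 differed by environment, Angpt1 and Svep1 higher and Tek lower, against 8.25% of all genes. With 1 of the 10 libraries left out in turn, the unadjusted p stayed under 0.05 in 10 of 10 cases for the Angpt1 genotype difference and the Tek environment difference, in 5 for Tie1 and 2 for Ptprb by genotype, and in 3 for Angpt1 and 3 for Svep1 by environment. Without Cort-/- OGD-R replicate 3, low in Rn18s-rs5, the unadjusted p left that level for Angpt1 (0.47; unadjusted p = 0.0860) and Svep1 (0.44; unadjusted p = 0.0856) by environment, for Tek by environment in Cort-/- (-0.29; unadjusted p = 0.246) and for Ptprb by genotype (0.22; unadjusted p = 0.104). It came under 0.05 there for Angpt2 by genotype (0.54; unadjusted p = 0.0211) and for Svep1 by environment in Cort-/- (0.67; unadjusted p = 0.0452). Without Cort+/+ OGD-R replicate 1 the p of Svep1 by environment was 0.0656 (0.55). The median genotype difference of the 6 over both environments was 0.16, against -0.01 over all genes, and the median environment difference 0.12, against -0.01. In the same fits the 8 endothelial markers had medians of 0.29 by genotype (6 of 8 above 0) and -0.08 by environment (2 of 8 above 0).

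Within a library, ratios of the members need no scaling between libraries. Angpt2 exceeded Angpt1 by 263, 227 and 403 times in Cort+/+ and by 1180 and 978 times in Cort-/- under NX/NG. After OGD-R the ratio was 348, 305 and 256 in Cort+/+ and 634 and 446 in Cort-/-. All 4 Cort-/- libraries thus had a higher ratio than all 6 Cort+/+ libraries, and the 2 Cort-/- NX/NG libraries had the highest; the low Angpt1 read counts limit the precision of each ratio. The receptors kept a narrower ratio: Tie1 exceeded Tek by 6.23 to 9.47 times, with 7.16 ± 0.52 (SD, n = 3) in Cort+/+ and 6.79 ± 0.80 (n = 2) in Cort-/- under NX/NG, and 8.32 ± 1.00 (n = 3) and 8.49 ± 0.25 (n = 2) after OGD-R. Angpt2 over Tek ran from 16.3 to 22.6 under NX/NG and from 23.0 to 35.4 after OGD-R in Cort+/+. In Cort-/- it ran from 23.0 to 26.0 under NX/NG and from 27.3 to 36.1 after OGD-R. Ratios are given as values with no test.

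**Figure D4:**
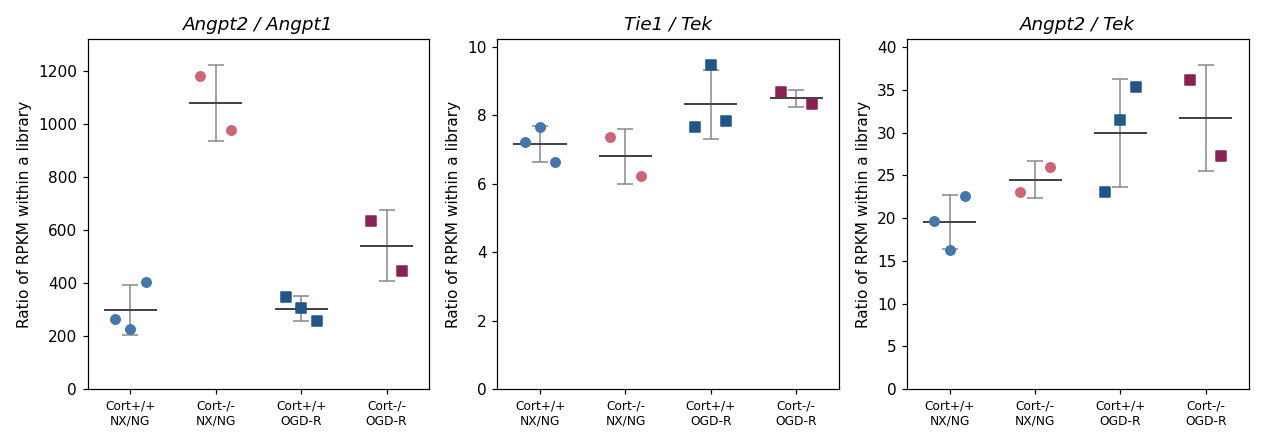
Ratios of RPKM within each library (vertical axes, linear, from 0) for Angpt2 over Angpt1, Tie1 over Tek and Angpt2 over Tek; points are libraries, bars the mean and whiskers 1 SD. Angpt2 over Angpt1 is 978 and 1180 in the Cort-/- NX/NG libraries and between 227 and 403 in the 6 Cort+/+ libraries.

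Other genes of the pathway were counted in 9 lists, described by counts beside the background shares above. Of 23 adaptors and effectors of Tie2, 7 had an unadjusted p under 0.05 for genotype under NX/NG (3 higher, 4 lower) and 6 over both environments (3 higher, 3 lower), with medians of 0.00 and -0.01, and none passed FDR 0.05. With 1 library left out the count of 7 became 1 (without Cort-/- NX/NG replicate 2) to 6. Nos3 (endothelial nitric oxide synthase) had the smallest p over both environments: it had 31.2 ± 3.64 and 40.1 ± 1.51 RPKM in Cort+/+ and Cort-/- under NX/NG (SD, n = 3 and 2), and 25.8 ± 1.07 and 35.0 ± 1.46 RPKM after OGD-R. These levels are RPKM as deposited, while the differences over both groups used jointly scaled RPKM. The Nos3 genotype difference was 0.40 (95% interval 0.26 to 0.55, FDR = 0.0844) and its environment difference -0.31 (95% interval -0.46 to -0.17, FDR = 0.271). Akt2, an Akt kinase, and Pik3r2, a regulatory subunit of PI3-kinase, were lower in Cort-/- under NX/NG, with differences of -0.52 and -0.57 (unadjusted p = 0.00631 and 0.00935), whereas the catalytic subunit Pik3cb was higher over both environments by 0.44 (FDR = 0.159).

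By genotype, Nos3, Pik3cb, Mmp14, Itgb5 and Angptl2 passed FDR 0.05 under some alternatives that kept all libraries. In the main fits the only list gene that passed was among the FOXO factors and FOXO-induced genes. Whether FOXO factors had a part in it was not tested. This gene, Txnip, which binds and inhibits thioredoxin, was lower after OGD-R, with a difference of -0.66 over both genotypes (95% interval -0.79 to -0.53, FDR = 0.0116). On the jointly scaled RPKM its level in Cort+/+ was 40.8 ± 1.96 under NX/NG and 26.1 ± 2.72 after OGD-R (SD, n = 3). In Cort-/- it was 43.0 ± 2.89 and 26.8 ± 0.24 (SD, n = 2). This call was lost in 5 of 17 alternatives, with FDR from 0.0513 to 0.0546: the term for libraries low in ribosomal RNA, the replicate block, and leaving out Cort+/+ NX/NG replicate 3 or either Cort-/- OGD-R library. In that list, 4 of 17 genes had an unadjusted p under 0.05 for environment over both genotypes, 2 higher and 2 lower, and 3 of 17 for genotype under NX/NG, where the stress-induced Gadd45a was higher and Foxo3 lower; the median difference was -0.02 and 0.02. Esm1, an endothelial proteoglycan gene of sprouting tips, was 0.31 higher in Cort-/- over both environments (FDR = 0.316).

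Of 17 transcription factors of the Tie and Angpt2 genes, 6 had an unadjusted p under 0.05 for genotype under NX/NG, 3 in each direction, and none after OGD-R. With 1 library left out these counts ran from 0 (without Cort-/- NX/NG replicate 2) to 8 (without Cort+/+ NX/NG replicate 3) and, after OGD-R, from 0 to 3 (without Cort-/- OGD-R replicate 3). The p of Erg and of Foxc2 stayed under 0.05 in 1 of 5 such cases each, and that of Klf4 in 4. Erg, an endothelial ETS factor, had 74.1 ± 15.2 RPKM in Cort+/+ and 105 ± 6.20 RPKM in Cort-/- (0.51, 95% interval 0.07 to 0.96; FDR = 0.531). Klf4, a flow-responsive factor, had 13.8 ± 2.57 and 7.06 ± 1.81 RPKM (-0.96, 95% interval -1.54 to -0.38; FDR = 0.374), and the forkhead gene Foxc2 was lower too (-0.83; FDR = 0.489). Among 6 integrin subunits that bind angiopoietins or Svep1, Itgb5 had 33.4 ± 6.68 and 14.8 ± 3.07 RPKM under NX/NG, a difference of -1.16 (95% interval -1.71 to -0.62; FDR = 0.265), and Itgb3 was 0.34 higher (FDR = 0.592). Itgb5 was 0.98 higher after OGD-R in Cort-/- (unadjusted p = 0.0134), with an interaction of 0.73 (95% interval 0.02 to 1.45; unadjusted p = 0.0453, FDR = 1.00). Itgb5, Klf4 and Foxc2 were named for a small p by genotype under NX/NG and were lower in Cort-/-. That they were low in the same 2 libraries as Angpt1 and the pericyte and fibroblast marker sums follows from this choice. Erg and Itgb3, named by the same rule, were higher there. A relation of any of these genes to Angpt1 was not tested.

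In the angiopoietin-like family (8 genes), Angptl2 had 8.90 ± 1.20 RPKM in Cort+/+ and 4.35 ± 1.22 RPKM in Cort-/- under NX/NG (-1.03, 95% interval -1.56 to -0.51; FDR = 0.293), and it was 0.58 higher after OGD-R over both genotypes (FDR = 0.452). Angptl4, a lipoprotein lipase inhibitor, was 0.56 higher in Cort-/- over both environments (unadjusted p = 0.0346). Of 8 tip and sprouting genes 7 had a value above 0 for genotype under NX/NG. Their median was 0.46, against -0.01 over all genes and 0.35 over the 8 endothelial markers, of which 7 were above 0. None of the tip and sprouting genes had an unadjusted p under 0.05. That count was 4 without Cort+/+ NX/NG replicate 3 and 5 with limma-voom on recovered reads; Esm1 and Angptl4 are members of that list also. All 6 genes of the VE-cadherin complex were above 0 for genotype over both environments (median 0.12), 2 with an unadjusted p under 0.05, Jup (plakoglobin) and Ctnna1 (alpha-catenin), and all 6 were below 0 for environment over both genotypes (median -0.09), none at that level. Of the 3 proteases that shed Tie receptors, Mmp14 was lower in Cort-/- under NX/NG, at 25.2 ± 0.16 RPKM against 35.4 ± 5.36 RPKM (-0.48; FDR = 0.468), and of the 3 R3 receptor phosphatases tested in all 4 groups, relatives of Ptprb, none had an unadjusted p under 0.05 in any comparison.

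The genes whose pattern over the 10 libraries was most like each member were found among 14854 other genes that reached 1 RPKM in 2 or more libraries, by Pearson's r of log2 values. For Angpt2 they were Mcam (CD146, 0.978), Me3 (0.971) and Pdgfb (0.968), the gene of platelet-derived growth factor B. For Tek they were Apbb2 (0.962), Gm43197 (0.947) and A630072M18Rik (0.946), for Tie1 Plcg2 (0.941), Endod1 (0.930) and P2rx7 (0.927), and for Ptprb Fancb (0.966), Arhgap11a (0.960) and Zfp335 (0.957). Between the 4 well-expressed members r ran from 0.177 for Angpt2 and Ptprb to 0.584 for Angpt2 and Tie1. These pairs were fixed by the choice of members, while the genes above were picked for the highest r. The values are therefore not comparable. All of these r are descriptions over 10 libraries that share genotype and environment.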

How the data were processed

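RNA-seq of cultured BECs was deposited as 1 table per environment. RPKM (reads divided by gene length and by library size) was computed by the authors for each table on its own, and the labels say that the authors used edgeR, while the aligner, counter and build are not given in the sources used here. Gene lengths equal the exon union of GENCODE mouse release 21 (GRCm38) for 98.1% of 28377 genes, including all 6 members, so positions are from that annotation and build. The labels and the methods differ in library kit, RNA input and read length, and the labels add a stroke model in mice where the methods describe cultured BECs; groups follow the sample titles. The labels list 12 samples, and the third Cort-/- replicate under NX/NG and the second after OGD-R were not analysed here. The authors' pooled means and their own comparison columns (fold changes, p-values) were not used.

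RPKM times length is a whole number of reads in 99.99% or more of values (within 0.05 of a step), so reads were recovered. Genotypes were compared within a table on RPKM as deposited. Other comparisons used the reads of the 27321 shared genes, scaled over the 10 libraries with trimmed means of M values. The fits used limma 3.58.1 (R 4.3.3; moderated by empirical Bayes with a mean trend, two-sided) on log2(RPKM + 0.1) of every gene above 0 in 1 or more libraries. Calls needed an FDR (Benjamini-Hochberg) not above 0.05, and an unadjusted p under 0.05 is a weaker rule. Replicates are pools of 3 mice. The fit was also run on simulated reads, with the same dispersion for all genes and no libraries low in ribosomal RNA. That setting is simpler than these data and does not measure error rates here. Alternatives were a pseudocount of 1, a filter keeping genes that reach 1 RPKM in 2 or more libraries, quantile normalization, limma-voom on recovered reads, a replicate block, a model term marking the 2 libraries with little ribosomal RNA, all 4 groups in 1 fit, RPKM as deposited across tables, and each library left out.

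The members, lists and tests were chosen with earlier results of these data known. Named are the members; list genes with FDR at most 0.05, or up to 3 per list and comparison with the smallest unadjusted p under 0.05 and a mean of at least 1 RPKM; markers; Cort and Rn18s-rs5; and the 3 genes most like each member above 1 RPKM. Mcph1 was added for its overlap with Angpt2, and its r with Angpt2 was computed after their values were seen. No Tie1 promoter is shown, because most of that window is 5′ untranslated exon in GENCODE. Whether counting used strand is not given; Svep1 shares 2244 exonic bases with Gm26889 on the other strand.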

Additional observations from a re-analysis of the deposited data

How the results depend on the processing

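No member passed FDR 0.05 under any alternative; the lowest FDR was 0.0969, for Angpt1 (genotype, NX/NG) with limma-voom on recovered reads. Of 580 alternative values of the 42 member results, 543 kept their direction and 37 reversed, in 11 results whose main difference was at most 0.20. Angpt1 and Svep1 had no value under the filter of 1 RPKM, and pairwise fits left without 1 Cort-/- library assume that the lone library varies like the others.

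Counts of all genes called at FDR 0.05 changed with the settings. They cannot be set against the members, which are too few for a call to be likely at such small shares. For genotype under NX/NG (0 called) they were 20 with a pseudocount of 1, 124 with limma-voom, 4 with all groups in 1 fit and 0 to 683 with 1 library left out (683 without Cort-/- replicate 2). For genotype after OGD-R (0 called) they were 5 with limma-voom, 7 with all groups in 1 fit and 0 to 710 with 1 library left out (710 without Cort-/- replicate 1). For environment in Cort+/+ (9 called) they were 5 with a pseudocount of 1, 1 with limma-voom, and 0 with the filter, the replicate block, the ribosomal RNA term, all groups in 1 fit or any 1 library left out. For the interaction (3 called) they were 0 with a pseudocount of 1, the filter, limma-voom, the block or the ribosomal RNA term, and 0 to 8 with 1 library left out. Genotype over both environments (25 called) gave 16 with a pseudocount of 1, 211 with limma-voom, 8 with the block, 12 with the ribosomal RNA term and 10 to 182 with 1 library left out (182 without Cort-/- OGD-R replicate 3). Environment over both genotypes (4 called) gave 7 with a pseudocount of 1, 9 with the filter, 9 with quantile normalization, 20 with limma-voom, 0 with the block, 2 with the ribosomal RNA term, 7 with RPKM as deposited and 1 to 7 with 1 library left out. The cause was not tested.

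Several values near 0 turned sign. With the replicate block the Svep1 genotype difference after OGD-R was -0.13, the Tie1 interaction 0.0060, and the environment differences over both genotypes were 0.00085 for Tie1 and -0.016 for Ptprb. With the ribosomal RNA term, Svep1 after OGD-R was -0.0018, environment in Cort-/- gave 0.067 for Tie1 and -7.7e-05 for Ptprb, and environment over both genotypes gave 0.021 for Tie1 and -0.094 for Ptprb. RPKM as deposited across tables gave environment differences of 0.071 for Tie1 and 0.043 for Ptprb in Cort+/+, 0.050 for Tie1 in Cort-/- and 0.063 for Tie1 over both genotypes. That scaling moved the median of expressed genes by 0.08 (log2) for environment over both genotypes and the split of genes at an unadjusted p under 0.05 from 1151 higher and 1103 lower to 2719 and 527, in Cort+/+ from 814 and 671 to 1644 and 426, and in Cort-/- from 585 and 497 to 884 and 358.

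With 1 library left out, the genotype difference after OGD-R ran from -0.071 to 0.46 for Angpt2 (lowest without Cort-/- replicate 1) and from -0.22 to 0.36 for Svep1 (lowest without Cort-/- replicate 3). Environment in Cort+/+ ran from -0.071 to 0.035 for Tie1 and from -0.14 to 0.11 for Ptprb (highest without Cort+/+ OGD-R replicate 2). Environment in Cort-/- ran from -0.26 to 0.27 for Angpt2, from -0.12 to 0.067 for Tie1 and from -7.7e-05 to 0.090 for Ptprb. The interaction ran from -0.12 to 0.068 for Tie1 and from -0.066 to 0.19 for Ptprb, and environment over both genotypes from -0.052 to 0.020 for Tie1 and from -0.058 to 0.081 for Ptprb.

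Deviations of the same-numbered Cort+/+ libraries from their group means correlated at -0.03, -0.06 and 0.11. These values do not show a pairing by replicate number, but they cannot exclude mouse pools shared between the environments. Shared pools would leave fewer independent units than the 10 libraries in the fits over both environments or genotypes. The replicate block called no member and turned the 4 signs given above. No paired analysis was possible for environment in Cort-/- because its groups share only number 1. Depth of the recovered reads limits Angpt1 and Svep1, with 16 to 96 and 19 to 84 such reads per library.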
